A study of Mus musculus with 10 samples.

Results

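The genes described here are 10 members of glycolysis and its exit to lactate or pyruvate oxidation, taken by symbol from the gene table of a cap analysis of gene expression (CAGE) experiment in mouse hippocampus. They were Hk1, Hk2, Pfkl, Pfkm, Pfkp, Pfkfb3, Aldoa, Ldha, Ldhb and Pdk1, which make up 10 of the 15900 genes listed, and all 10 were measured in every mouse. CAGE sequences the capped 5′ ends of RNAs, so that each tag marks 1 transcript start, and levels are given as CPM, the tags of a gene scaled to a fixed library total. Since a transcript yields 1 tag whatever its length, levels of different genes are compared here without scaling for length.

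Male ICR (CD-1) mice of 9 to 10 weeks received pilocarpine (PILO), a muscarinic agonist, after methyl scopolamine, which limits its effects outside the brain, and went into status epilepticus (SE), which was ended with diazepam. Whole hippocampi were taken 6 h or 2 days after SE, with or without levetiracetam (LEV), an antiseizure drug given orally within 30 min of diazepam and then 2 times a day. The 5 groups of 2 mice were pre-SE (untreated per the labels, while the methods describe saline in place of PILO for control mice), SE 6 h, SE + LEV 6 h (LEV given 1 time), SE 2 days and SE + LEV 2 days (LEV given 5 times). Without a group given LEV but no PILO, LEV was compared only after SE, and the pre-SE mice served every comparison against baseline. The question put to these genes was how their transcript levels stood before SE, 6 h and 2 days after it, and with LEV.

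Glycolysis splits glucose into pyruvate. Hexokinases trap glucose in the cell, phosphofructokinase makes the committed step, aldolase cleaves the sugar, and lactate dehydrogenase converts pyruvate and lactate into each other, while pyruvate dehydrogenase sends pyruvate into mitochondrial oxidation. In the brain, where glucose is the main fuel, several steps are carried out by more than 1 isozyme, and the isozymes differ between neurons, astrocytes and microglia. Many genes of the pathway, among them Hk2, Pfkfb3, Ldha and Pdk1, are known targets of hypoxia-inducible factor, whose binding sites often hold the core letters ACGTG.

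Library depth, as estimated from the spacing of low values, ran from 10540698 to 51710970 tags, so that 3 tags were worth 0.058 to 0.285 CPM. That limit covers counting error only, and the lowest value of any of the 10 genes, 0.64 CPM for Hk2, lay above it. Neuronal markers summed to between 3609 and 7340 CPM in each mouse over 10 of 10 genes. As a list they mark neurons and not a brain region, so the hippocampal label itself was not tested. Choroid plexus markers, a tissue that borders the hippocampus, ranged from 8.72 to 4025 CPM over 4 of 5 listed genes and differed widely within groups, from 12.6 to 1710 CPM between both pre-SE mice. Oligodendrocyte markers (6 of 6 listed) summed to 4967 to 5400 CPM before SE and 1777 to 2725 CPM at SE 2 days, and to 3273 to 4596 CPM at SE + LEV 2 days. Summed microglial markers (7 of 7 listed) were 363 to 431 CPM before SE, 265 to 287 CPM in the 4 mice at 6 h and 845 to 1136 CPM in the 4 mice at 2 days. In bulk tissue, fewer cells of a type and less RNA per cell cannot be told apart.

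To show the sequence at annotated starts of the members with called changes, the 250 bases before 1 RefSeq start of each are given 5′ to 3′ on the coding strand. The ACGTG core is in capitals, searched on both strands, so that a match on the other strand reads CACGT and CACGTG is 1 stretch with overlapping matches on both strands. The bases are from the RefSeq GRCm38.p6 table, and their positions come from a match of the whole window to a single place in mm9, the build of the files. Hk2 (ENSMUSG00000000628) lies on the minus strand of chromosome 6 from 82675019 to 82724448, and its window is chr6:82724449-82724698, directly upstream of the annotated gene. Pfkfb3 (ENSMUSG00000026773) lies on the minus strand of chromosome 2 from 11393057 to 11423728, and the window shown is chr2:11423718-11423967, at the annotated 5′ end. Ldha (ENSMUSG00000063229) lies on the plus strand of chromosome 7 from 54096845 to 54110997, and the window shown is chr7:54100924-54101173, inside the span of the annotated gene, whose start is further upstream.
Hk2: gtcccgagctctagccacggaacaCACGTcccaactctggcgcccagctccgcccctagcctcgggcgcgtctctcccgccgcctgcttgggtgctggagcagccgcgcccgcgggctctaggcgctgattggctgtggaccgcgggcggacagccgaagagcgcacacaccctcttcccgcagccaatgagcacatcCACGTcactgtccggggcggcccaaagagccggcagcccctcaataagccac
Pfkfb3: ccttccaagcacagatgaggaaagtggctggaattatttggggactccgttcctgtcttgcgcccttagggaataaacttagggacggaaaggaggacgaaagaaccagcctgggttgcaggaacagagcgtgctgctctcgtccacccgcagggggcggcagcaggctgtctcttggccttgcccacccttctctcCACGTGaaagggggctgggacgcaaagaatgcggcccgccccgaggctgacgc
Ldha: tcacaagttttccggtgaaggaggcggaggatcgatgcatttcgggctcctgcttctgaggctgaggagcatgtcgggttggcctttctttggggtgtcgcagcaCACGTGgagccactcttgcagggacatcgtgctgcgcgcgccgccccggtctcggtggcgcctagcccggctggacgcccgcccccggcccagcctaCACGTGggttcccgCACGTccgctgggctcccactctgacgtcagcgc
The windows hold 2, 1 and 3 stretches with the core, and the other RefSeq window of Ldha holds 0. A further RefSeq start of Pfkfb3, with the window chr2:11475557-11475806 and 1 stretch, lies outside the annotated gene, and whether its tags were counted to Pfkfb3 is not stated in the sources used here. Of all 32851 windows in the table, 16.6% hold it, against 8 of the 19 windows of the 10 members. Windows of 1 gene can overlap, and those of Aldoa that do so hold the same stretch. By gene, 5 of the 10 members hold the core in any window, beside 18.5% of all genes. Among these 5 are Pfkm and Aldoa, which were not called in any comparison. Both windows of Pdk1 hold 0 stretches with ACGTG. No other letters were searched, so these counts do not cover other forms of the site. A match is a description of the letters and not a binding site.

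The other members were annotated in mm9 as follows. Hk1 lies on chromosome 10 from 61731603 to 61842656, Pfkl on chromosome 10 from 77449692 to 77472828, Pfkp on chromosome 13 from 6579014 to 6648023, Aldoa on chromosome 7 from 133938748 to 133944265 and Ldhb on chromosome 6 from 142438769 to 142456477, all on the minus strand. Pfkm lies on chromosome 15 from 97923020 to 97962878 and Pdk1 on chromosome 2 from 71711281 to 71741915, both on the plus strand. Hk1, Hk2, Pfkm and Pfkp each overlap 1 gene on the opposite strand (2210417K05Rik, Gm17034, Senp1 and Pitrm1). Whether strand was used when tags were assigned to genes is not stated in the sources used here, so the values of these 4 genes could include tags of the other gene.

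Before SE the 10 genes spanned a wide range of levels. Aldoa, the main aldolase of most tissues, was the highest with a mean of 1762 ± 139.6 CPM (SD, n = 2), followed by Ldhb with 395 ± 14.5 CPM and Ldha with 289 ± 55.1 CPM. Pfkl had 229 ± 15.9 CPM and Hk1 216 ± 13.1 CPM, and their values overlapped between the mice. Pfkm had 142 ± 69.1 CPM and Pfkp 95.5 ± 21.7 CPM, which also overlapped. Pdk1 with 42.7 ± 11.98 CPM, Pfkfb3 with 13.2 ± 2.52 CPM and Hk2 with 1.06 ± 0.59 CPM closed the order, each apart from its neighbours in both mice. Aldoa stayed first and Hk2 last in every group. Ldha was above Ldhb in both mice of SE 2 days and of SE + LEV 2 days and below it in both mice of pre-SE and SE 6 h. Pfkfb3 was above Pdk1 in both mice of both 6 h groups and below it in both pre-SE mice.

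**Figure D1:**
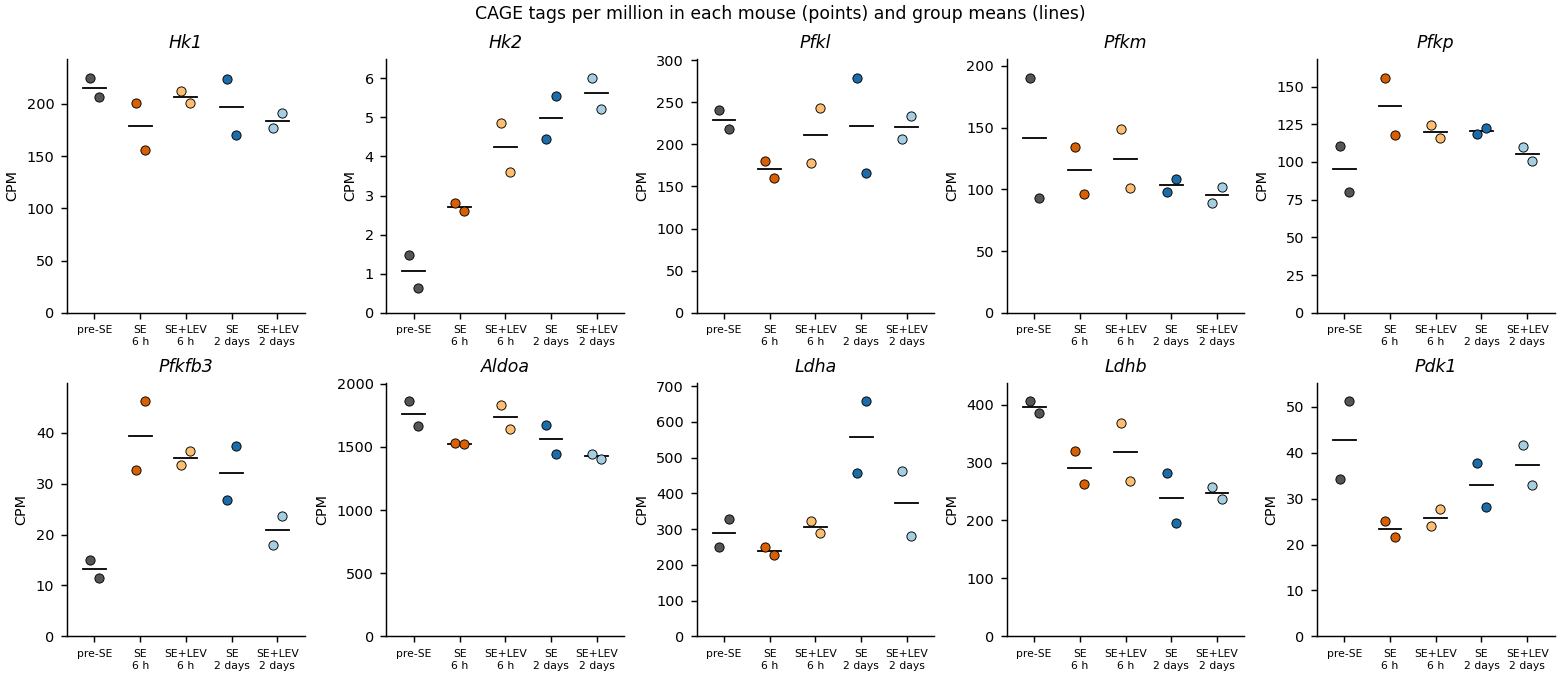
CPM of each of the 10 genes (y axis, from 0, own scale per panel) in the 5 groups (x axis), with a point per mouse and a line at the group mean. All post-SE mice lie above both pre-SE mice for Hk2 (at least 2.6 CPM against at most 1.48 CPM) and Pfkfb3 (at least 18.0 CPM against at most 15.0 CPM), and the group mean of Ldha is highest at SE 2 days, from mice at 456 and 657 CPM.

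Differences were tested with limma on log2(CPM + 0.1) across 15851 genes, with p-values adjusted by the Benjamini-Hochberg method over all of them and called at 0.05 or below. Fold changes on this scale understate the change of low genes. At 6 h after SE, 1 of the 10 genes, Pfkfb3, was called against pre-SE, and it was higher. Over all genes tested, 2.96% were called (2.76% higher and 0.202% lower). At 2 days after SE, Hk2 and Pfkfb3 were called higher, 2 of 10, against 5.66% of all genes (5.07% higher and 0.593% lower). At 6 h the values of SE mice were wholly above pre-SE for Hk2, Pfkp and Pfkfb3, 3 of the 10 genes, and wholly below for Hk1, Pfkl, Aldoa, Ldha, Ldhb and Pdk1, 6 of the 10, beside 18.6% above and 31.3% below over all genes. These counts use CPM as deposited and were not repeated after rescaling. Median-of-ratios factors were 0.93 and 0.95 for the SE 6 h mice and 1.03 and 1.02 for the pre-SE mice. Narrow gaps, such as that of Ldha (250.2 CPM at SE 6 h against 250.4 CPM in pre-SE), therefore depend on the scaling. At 2 days they were wholly above for Hk2, Pfkp, Pfkfb3 and Ldha, 4 of the 10, and wholly below for Ldhb alone, beside 26.3% above and 25.6% below over all genes. The median difference of the 10 genes was -0.24 at 6 h and -0.12 at 2 days (log2), beside -0.13 and -0.03 over all genes tested.

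Hk1 encodes the hexokinase that predominates in brain. It had 225 and 206 CPM in the pre-SE mice, 201 and 156 CPM at SE 6 h, 212 and 201 CPM at SE + LEV 6 h, 224 and 170.0 CPM at SE 2 days, and 177 and 191 CPM at SE + LEV 2 days. The SE 6 h and the SE + LEV 2 days mice lay wholly below both pre-SE mice, and the mice of the other groups overlapped them. The difference at 6 h was -0.28 (log2, standard error 0.22), with a limma adjusted p of 0.55.

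Hk2 encodes the hexokinase typical of muscle and fat, which is low in resting brain and is inducible in many cells. It had 1.48 and 0.64 CPM in the pre-SE mice and 2.82 and 2.60 CPM at SE 6 h. With LEV at 6 h it had 4.85 and 3.61 CPM. At SE 2 days it had 4.45 and 5.54 CPM, and at SE + LEV 2 days 6.01 and 5.22 CPM. Every mouse after SE was above both pre-SE mice. The SE 2 days level was 4.68-fold that of pre-SE (log2 difference 2.23, standard error 0.41, limma adjusted p 0.012), and that of SE + LEV 2 days was 5.27-fold (2.40, adjusted p 0.012). The differences from pre-SE at SE 6 h (1.38, limma adjusted p 0.12) and SE + LEV 6 h (1.99, limma adjusted p 0.097) were not called. The SE 2 days call was lost without pre-SE replicate 2, the mouse with the lowest Hk2, or without SE 2 days replicate 2, and the SE + LEV 2 days call without pre-SE replicate 2 or SE + LEV 2 days replicate 1 or with only those groups fitted, with adjusted p of up to 0.12 for both.

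Taken within each library, Hk2 had 0.66 and 0.31 tags per 100 Hk1 tags before SE. The ratio was 1.40 and 1.66 at SE 6 h, 2.28 and 1.80 at SE + LEV 6 h, 1.99 and 3.26 at SE 2 days, and 3.40 and 2.73 at SE + LEV 2 days. Hk1 gave far more tags than Hk2 in all 10 mice. The SE 2 days mean exceeded that of pre-SE by 2.14 tags per 100, and no value overlapped (two-sided exact permutation p = 0.333). This is the smallest p that 2 mice against 2 can give, here and for every ratio and share within a library, so that none of them could pass 0.05.

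Hk3, a hexokinase found mainly in myeloid blood cells and outside the 10 members, was measured beside them. It had 0.41 and 0.41 CPM before SE, 1.76 and 0.89 CPM at SE 6 h, 0.66 and 0.57 CPM at SE + LEV 6 h, 5.51 and 4.16 CPM at SE 2 days and 5.65 and 2.71 CPM at SE + LEV 2 days. It was called against pre-SE at SE 2 days (log2 difference 3.26, limma adjusted p 0.0036) and at SE + LEV 2 days (2.98, limma adjusted p 0.0083). The latter call was lost, with adjusted p of up to 0.085, without pre-SE replicate 1, pre-SE replicate 2 or SE + LEV 2 days replicate 1 or with only those groups fitted. The summed microglial markers given above moved in the same direction at 2 days. The 7 markers were not uniform at SE 2 days, where 5 had higher estimates than pre-SE and 2 had lower ones. Of the 7, 5 lay wholly above pre-SE and 1 wholly below, beside 26.3% and 25.6% of all genes. For infiltrating monocytes and macrophages, 3 of 7 markers were listed, without Ccr2 and Ly6c2. They summed to 0.47 to 0.82 CPM before SE and 4.31 to 13.5 CPM in the 4 mice at 2 days. Astrocyte markers (8 of 8) summed to 2623 to 2777 CPM before SE and 3714 to 5124 CPM in the 4 mice at 2 days, with Gfap and Aqp4 called higher at SE 2 days, while 5 of the 8 had lower estimates than pre-SE there (4 of them wholly below) and the median of the list was -0.48 (log2). The part of these cells in the results for Hk2, Hk3 and Ldha was not tested.

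Phosphofructokinase is built from the products of Pfkl, Pfkm and Pfkp, named for liver, muscle and platelet. None of these 3 genes was called in any comparison. Pfkl had 241 and 218 CPM in the pre-SE mice and 180.4 and 160.1 CPM at SE 6 h, which lay below both. It had 178 and 243 CPM at SE + LEV 6 h, 279 and 166 CPM at SE 2 days and 207 and 234 CPM at SE + LEV 2 days, where the mice of each group straddled others. The 6 h difference was -0.43 (log2, limma adjusted p 0.44).

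Pfkm had 190.4 and 92.7 CPM before SE, the widest gap between both pre-SE mice among the 3 genes. It ranged from 89.3 to 149 CPM in the 8 mice after SE, and every group overlapped pre-SE.

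Pfkp had 111 and 80.2 CPM in the pre-SE mice and 156 and 118 CPM at SE 6 h, above both. It had 125 and 116 CPM at SE + LEV 6 h, 119 and 122 CPM at SE 2 days and 109.8 and 101 CPM at SE + LEV 2 days, the last overlapping pre-SE. The differences from pre-SE were 0.52 at SE 6 h (log2, limma adjusted p 0.27) and 0.35 at SE 2 days (limma adjusted p 0.45). As a share of the tags of all 3 genes, Pfkp took 20.5% in each pre-SE mouse and 33.1% and 31.6% at SE 6 h. It took 27.6% and 25.1% at SE + LEV 6 h, below both SE 6 h mice, then 23.9% and 30.9% at SE 2 days and 27.0% and 23.1% at SE + LEV 2 days. The SE 6 h mean was 11.8 percentage points above pre-SE and the difference of SE + LEV 6 h from SE 6 h was -5.96 points (each with a two-sided exact permutation p of 0.333).

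Pfkfb3 encodes the enzyme that makes the fructose bisphosphate that activates phosphofructokinase, and is the inducible form of its family. It had 15.0 and 11.4 CPM in the pre-SE mice and 32.6 and 46.2 CPM at SE 6 h. With LEV at 6 h it had 33.6 and 36.5 CPM. At SE 2 days it had 26.8 and 37.4 CPM, and at SE + LEV 2 days 18.0 and 23.7 CPM. All 8 mice after SE were above both pre-SE mice. Pfkfb3 was 2.95-fold higher at SE 6 h than in pre-SE (log2 difference 1.56, standard error 0.29, limma adjusted p 0.020) and 2.40-fold higher at SE 2 days (1.27, standard error 0.29, adjusted p 0.033). With LEV the differences from pre-SE were 1.41 at 6 h (limma adjusted p 0.096) and 0.65 at 2 days (limma adjusted p 0.45), neither called. Both calls were lost when only the groups compared were fitted or without pre-SE replicate 1, pre-SE replicate 2 or the second mouse of the SE group compared, with adjusted p of up to 0.17 at 6 h and 0.28 at 2 days. Endothelial markers (6 of 6 listed) summed to 73.7 to 76.0 CPM before SE and 98.1 to 175 CPM in the 4 mice at 6 h. Cdh5, 1 of the 6, was called higher at SE 6 h, beside 2.76% of all genes. Of the 6, 4 lay wholly above and 2 wholly below pre-SE at SE 6 h, beside 18.6% and 31.3% of all genes. Their differences ran from -1.76 to 2.10 (log2) with a median of 1.05. The part of endothelial cells in the Pfkfb3 result was not tested.

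The other members of the family were not called in any comparison. Pfkfb2 ranged from 25.6 to 33.1 CPM over the 10 mice, Pfkfb4 from 9.24 to 20.1 CPM and Pfkfb1 from 0.38 to 1.12 CPM. Pfkfb3 was below Pfkfb2 in both pre-SE mice and above it in both SE 6 h mice and both SE + LEV 6 h mice.

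Aldoa had 1861 and 1663 CPM before SE, 1529 and 1521 CPM at SE 6 h, 1835 and 1642 CPM at SE + LEV 6 h, 1675 and 1446 CPM at SE 2 days and 1448 and 1407 CPM at SE + LEV 2 days. The SE 6 h mice and the SE + LEV 2 days mice were below both pre-SE mice, and the SE + LEV 6 h mice were above both SE 6 h mice. The differences of SE 6 h (-0.21, limma adjusted p 0.71) and SE 2 days (-0.18, limma adjusted p 0.76) from pre-SE were not called. Aldoc, the brain aldolase used as an astrocyte marker, had 774 and 386 CPM before SE and 283 and 206 CPM at SE 2 days, a difference of -1.18 (log2, limma adjusted p 0.15).

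Ldha encodes the lactate dehydrogenase subunit that predominates in muscle and in lactate-producing cells. It had 250.4 and 328 CPM in the pre-SE mice and 250.2 and 229 CPM at SE 6 h. With LEV at 6 h it had 323 and 289 CPM. At SE 2 days it had 456 and 657 CPM, and at SE + LEV 2 days 463 and 281 CPM. The SE 2 days mice were above all pre-SE, SE 6 h and SE + LEV 6 h mice, while the SE + LEV 2 days mice overlapped both pre-SE and SE 2 days. Against SE 6 h, Ldha was 2.29-fold higher at SE 2 days (log2 difference 1.19, standard error 0.29), with a limma adjusted p of 0.05 that lay just inside the threshold. In that comparison 1 of the 10 genes was called, Ldha, beside 4.25% of all genes (3.14% higher and 1.11% lower), and 3 of the 10 lay wholly above and 0 below, beside 31% above and 20.1% below over all genes. Against pre-SE its difference of 0.93 at SE 2 days (limma adjusted p 0.10) was not called. The call against SE 6 h was lost in 15 of 17 alternatives, with adjusted p of up to 0.26, and kept when either SE + LEV 2 days mouse was left out.

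Ldhb encodes the subunit that predominates in heart and is abundant in neurons. It had 405 and 385 CPM before SE, 320.2 and 263 CPM at SE 6 h, 369 and 269 CPM at SE + LEV 6 h, 283 and 196 CPM at SE 2 days and 258 and 238 CPM at SE + LEV 2 days. All 8 mice after SE were below both pre-SE mice. The differences from pre-SE were -0.45 at SE 6 h (log2, limma adjusted p 0.39), -0.75 at SE 2 days (limma adjusted p 0.13) and -0.67 at SE + LEV 2 days (limma adjusted p 0.31), none called. Summed neuronal markers were 5360 to 7340 CPM before SE and 3609 to 4393 CPM in the 4 mice at 2 days. Against pre-SE 0 of 10 were called at SE 2 days or SE + LEV 2 days, beside 5.66% and 2.85% of all genes. All 10 had lower estimates in both groups, with medians of -0.42 and -0.45 (log2). Wholly below pre-SE lay 3 of the 10 at SE 2 days and 7 at SE + LEV 2 days, beside 25.6% and 17.5% of all genes. The part of neurons in the Ldhb values was not tested.

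As a share of the tags of both subunit genes, Ldha took 38.2% and 46.0% in the pre-SE mice, 43.9% and 46.6% at SE 6 h, 46.7% and 51.8% at SE + LEV 6 h, 61.8% and 77.0% at SE 2 days and 64.3% and 54.2% at SE + LEV 2 days. All 4 mice at 2 days were above the 6 mice of the other groups. The SE 2 days mean was 27.3 percentage points above that of pre-SE, with no overlap (two-sided exact permutation p = 0.333). The difference of the SE + LEV 2 days mean from that of SE 2 days was -10.2 points, where the mice overlapped (two-sided exact permutation p = 0.667). It was -17.8 points without SE 2 days replicate 1 and -2.54 points without SE 2 days replicate 2. At SE 6 h the difference from pre-SE was 3.12 points, and the mice overlapped.

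**Figure D2:**
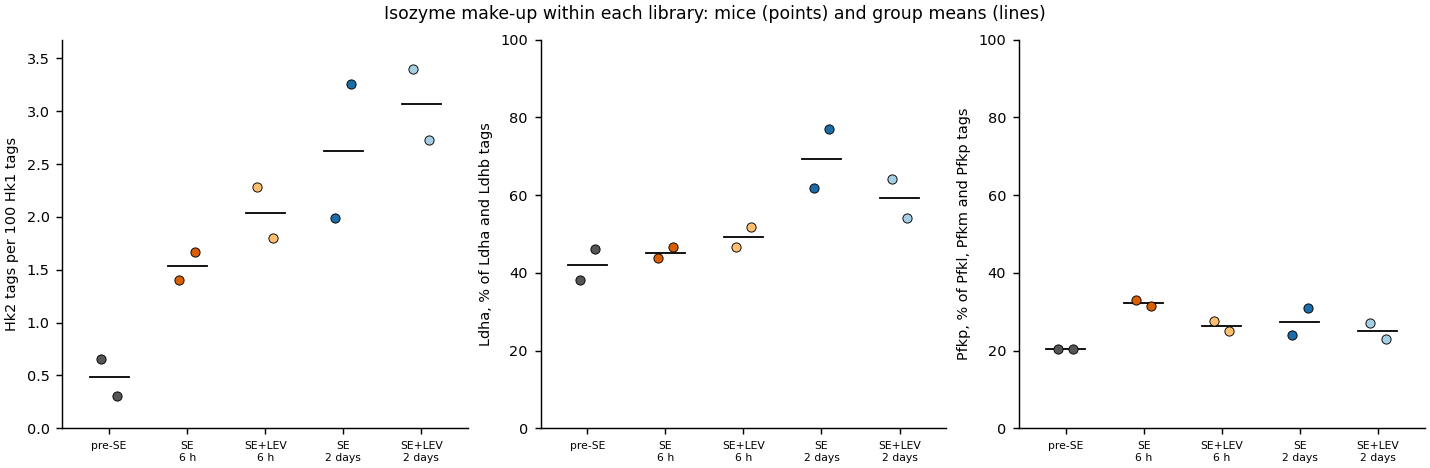
Tags of Hk2 per 100 tags of Hk1 (left), Ldha as a percentage of Ldha and Ldhb tags (middle) and Pfkp as a percentage of Pfkl, Pfkm and Pfkp tags (right) on the y axes, by group on the x axes, with a point per mouse and a line at the group mean. The Hk2 ratio is lowest in the pre-SE mice (0.66 and 0.31), the Ldha share exceeds 50% in all 4 mice at 2 days, and the Pfkp share is highest at SE 6 h (33.1% and 31.6%).

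Pdk1 encodes a kinase that inhibits pyruvate dehydrogenase. It had 34.3 and 51.2 CPM in the pre-SE mice, 25.1 and 21.7 CPM at SE 6 h, 24.0 and 27.7 CPM at SE + LEV 6 h, 37.9 and 28.1 CPM at SE 2 days and 41.7 and 32.9 CPM at SE + LEV 2 days. All 4 mice at 6 h were below both pre-SE mice, and the groups at 2 days overlapped pre-SE. The differences from pre-SE were -0.84 at SE 6 h (log2, limma adjusted p 0.16), -0.70 at SE + LEV 6 h (limma adjusted p 0.46) and -0.36 at SE 2 days (limma adjusted p 0.54), and the difference of SE 2 days from SE 6 h was 0.48 (limma adjusted p 0.36). Of the 12 listed genes of pyruvate dehydrogenase and its regulators, which do not include Pdk1, 0 were called by limma in any comparison, where 2.96% of all genes were called at SE 6 h and 5.66% at SE 2 days against pre-SE. Among them Pdk2 was below both pre-SE mice (140.3 and 162 CPM) in both SE 6 h mice (97.3 and 83.0 CPM), and Pdk4 was above (5.86 and 7.66 CPM against 10.5 and 20.1 CPM).

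The direct effect of LEV was compared at each time. At 6 h, 0 of the 10 genes were called between SE + LEV and SE, where 0.0126% of all genes were, and at 2 days 0 of 10 were called, where 0% of all genes were. At an unadjusted limma p under 0.05 there were 726 genes at 6 h and 428 at 2 days among all 15851 genes tested. Both numbers, and the 377 given below, are under a share of 0.05 of these genes, the share expected if no gene differed. At 6 h both LEV mice were above both SE mice for 3 of the 10 genes, Hk2, Aldoa and Ldha, and below for 0, beside 16.1% above and 13.4% below over all genes. The differences were 0.61 for Hk2 and 0.35 for Ldha (log2, both with a limma adjusted p of 1.0). At 2 days both LEV mice were below both SE mice for Pfkp and Pfkfb3 and above for 0, beside 12.2% below and 15.2% above over all genes. Pfkfb3 differed by -0.61 (unadjusted limma p 0.061, adjusted p 1.0) and Ldha, whose mice overlapped, by -0.60 (unadjusted limma p 0.066, adjusted p 1.0). In the same comparison at 2 days all 6 oligodendrocyte markers had higher estimates with LEV (median 0.85, log2, 4 of 6 wholly above), and the part of these cells in the values was not tested. The difference between the LEV effects at both times was not called for any of the 10 genes, nor for any gene in the table (0%, with 377 at an unadjusted limma p under 0.05), and its estimate for Ldha was -0.95 (log2, standard error 0.41, unadjusted limma p 0.043, adjusted p 1.0).

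Against pre-SE, which shares its mice with the comparisons above, 0 of 10 genes were called at SE + LEV 6 h, where 0.322% of all genes were (0.315% higher and 0.00631% lower). At SE + LEV 2 days 1 of 10 was called, Hk2, where 2.85% of all genes were (2.83% higher and 0.0189% lower). At 6 h, 3 of the 10 genes lay wholly above pre-SE and 2 wholly below, beside 17% and 25.5% of all genes, and at 2 days 2 lay above and 3 below, beside 22.6% and 17.5%.

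**Figure D3:**
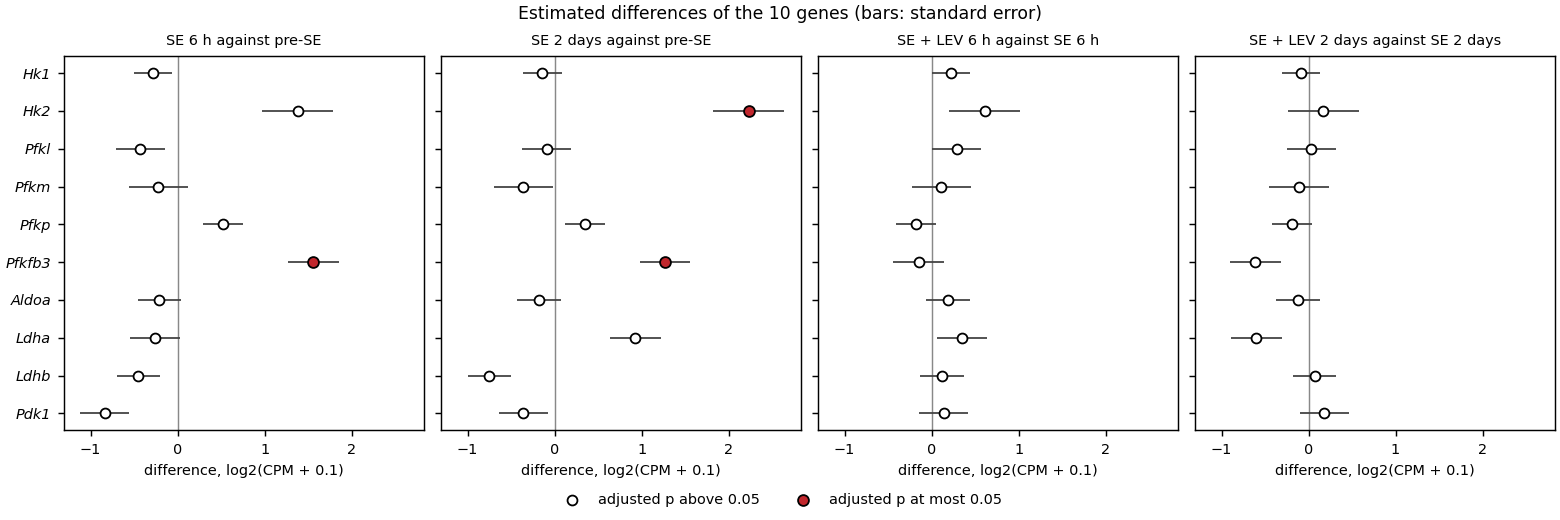
Difference of each of the 10 genes in log2(CPM + 0.1) (x axis) in 4 comparisons (panels), with bars for the standard error of the estimate. Filled points mark a limma adjusted p of at most 0.05, which are Pfkfb3 at 6 h and Hk2 and Pfkfb3 at 2 days after SE, and no point is filled in the panels that compare SE + LEV with SE.

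The other genes of the pathway were examined beside the members. Of 24 further glycolysis genes, 19 were listed and tested, and Hk3 at SE 2 days and at SE + LEV 2 days was the 1 gene called against pre-SE, where 5.66% and 2.85% of all genes were called. The median difference of these 19 genes from pre-SE was -0.24 at SE 6 h and -0.17 at SE 2 days (log2). Pkm2, the pyruvate kinase gene, ranged from 352 to 995 CPM, and its pre-SE mice had 995 and 411 CPM. Gapdh ranged from 20.7 to 35.0 CPM, below Pgk1 in each mouse (121 to 251 CPM), although both serve adjacent steps. Gapdh has many near-identical copies in the mouse genome, and Aldoa, Ldha and Pgk1 also have processed copies, so these values depend on how tags that map to several places were treated, which is not given in the sources used here.

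Of 8 glucose and lactate transporter genes, 5 were listed, and for all 5 the SE 6 h values were wholly above those of pre-SE, with a median difference of 1.36 (log2), beside 18.6% of all genes wholly above. At SE 6 h and at SE 2 days 1 of the 5 was called higher against pre-SE, beside 2.76% and 5.07% of all genes. Slc2a3, the neuronal glucose transporter, had 70.3 and 49.8 CPM before SE and 154 and 128 CPM at SE 6 h, then 47.9 and 48.6 CPM at SE 2 days. It was called higher at SE 6 h (log2 difference 1.25, limma adjusted p 0.037), and lower at SE 2 days than at SE 6 h (-1.54, limma adjusted p 0.012). The 6 h call was lost in 10 of 17 alternatives, with adjusted p of up to 0.27, among them leaving out any mouse except those of SE + LEV 2 days, and the call between the times without any single mouse of those groups (adjusted p of up to 0.094). With LEV at 6 h it had 120 and 93.7 CPM, below both SE 6 h mice and above both pre-SE mice. Slc16a3, a lactate exporter of highly glycolytic cells, had 0.48 and 0.73 CPM before SE, 1.12 and 2.74 CPM at SE 6 h, 5.26 and 3.92 CPM at SE 2 days and 4.23 and 2.22 CPM at SE + LEV 2 days. It was called against pre-SE at SE 2 days (log2 difference 2.74, limma adjusted p 0.011) and at SE + LEV 2 days (2.19, limma adjusted p 0.047). The former call was lost without pre-SE replicate 1 or either SE 2 days mouse (adjusted p of up to 0.096), and the latter in 13 of 17 alternatives (adjusted p of up to 0.41), among them leaving out any mouse except those of SE 6 h and SE + LEV 2 days replicate 2. The part of endothelial cells and microglia, whose summed markers are given above, was not tested.

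**Figure D4:**
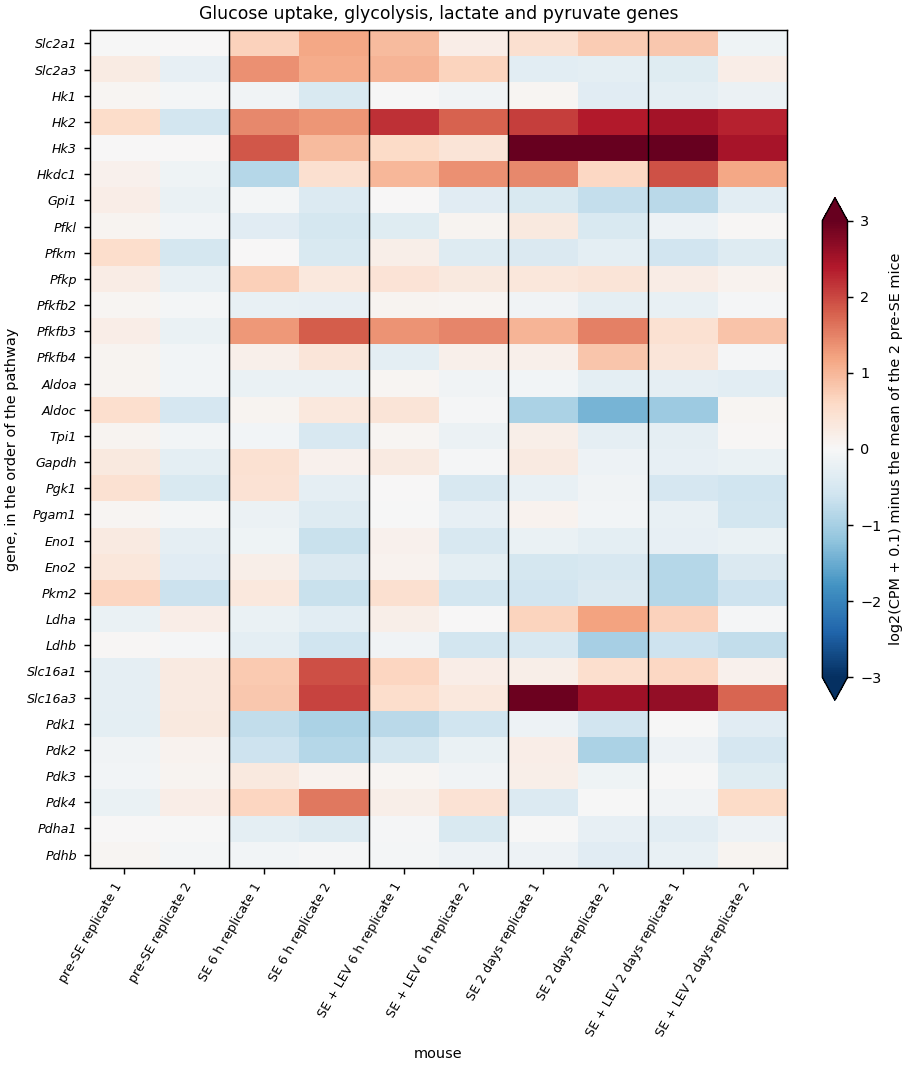
Heat map of 32 genes of glucose uptake, glycolysis, lactate and pyruvate (rows, in pathway order) in the 10 mice (columns), coloured by log2(CPM + 0.1) minus the mean of both pre-SE mice, from -1.40 to 3.49 with colours saturating at 3. Hk2, Hk3 and Slc16a3 are the rows with the strongest red at 2 days, Slc2a3 is red at 6 h and pale at 2 days, and Pfkfb3 is red in all mice after SE.

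Since several members are hypoxia-inducible, 14 such genes outside glycolysis were examined, of which 13 were listed. By limma, 0 of 13 were called against pre-SE at SE 6 h and at SE 2 days, where 2.96% and 5.66% of all genes were. Their median difference was -0.01 and -0.10 (log2), with 6 estimates higher and 7 lower at each time. At SE 6 h 4 lay wholly above pre-SE and 3 wholly below (Bnip3, Bnip3l and Ankrd37), beside 18.6% and 31.3% of all genes. At SE 2 days 3 lay wholly above and 3 wholly below (Ddit4, Egln1 and Ndrg1), beside 26.3% and 25.6%. Adm, which encodes the vasodilator adrenomedullin, had the highest estimate at both times. It had 0.72 and 1.3 CPM before SE, 6.54 and 4.45 CPM at SE 6 h and 5.94 and 4.63 CPM at SE 2 days, wholly above pre-SE, with differences of 2.36 (limma adjusted p 0.082, 0.038 to 0.32 over the alternatives) and 2.32 (limma adjusted p 0.058, 0.023 to 0.33 over the alternatives). Kdm3a, a histone demethylase, had 29.8 and 25.6 CPM before SE, 58.2 and 55.9 CPM at SE 6 h and 26.7 and 24.8 CPM at SE 2 days. Its difference at SE 6 h from pre-SE was 1.04 (limma adjusted p 0.066) and was called in 3 of 17 alternatives, with adjusted p from 0.033 to 0.34 over all of them. It was called lower at SE 2 days than at SE 6 h (log2 difference -1.14, limma adjusted p 0.038), and this call was lost in 9 of 17 alternatives, with adjusted p of up to 0.18, among them leaving out any mouse except those of SE + LEV 2 days. Vegfa, an angiogenic growth factor, had 52.0 and 116 CPM before SE and 209 and 229 CPM at SE 6 h, with no call.

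Across the 10 mice, the genes most like the called members on the log2(CPM + 0.1) scale were sought among 14219 genes with a mean of at least 1 CPM. Those most like Hk2 were Galntl2 (Pearson r = 0.956), Fcgr3 (0.940) and Ezh2 (0.939), those most like Pfkfb3 were Gadd45b (0.961), Tmem2 (0.958) and Sorcs3 (0.956), and those most like Ldha were Pdia6 (0.969), Ptgs1 (0.948) and Slco4a1 (0.947). Among the 10 members, Aldoa and Ldhb had the highest correlation (0.82) and Pfkfb3 and Pdk1 the lowest (-0.89). These correlations are over 10 mice in 5 groups that share the group differences and the library scaling, and are given as descriptions.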

How the data were processed

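CAGE tags of whole hippocampus from 10 mice (5 groups of 2) were used. The authors mapped tags to mm9 with BWA 0.7.17 and the remainder with HISAT2 2.0.5, grouped tags into clusters with the RECLU pipeline, dropped those under 0.1 CPM, and deposited CPM per gene for each library. Differential testing by the authors used edgeR 3.22.5. The step from clusters to genes is not given in the sources used here. Tag totals were estimated from the step between CPM values, to a tolerance of 0.0051 CPM, and were used only to state depth. Values were tested as log2(CPM + 0.1) with limma 3.58.1 (R 4.3.3), 5 group means over all 10 mice, with a trended prior, for the 15851 genes that reached 0.1 CPM in 2 or more libraries, and the script was tested on simulated data. Named were all members, list genes called in a comparison, main isozymes of their step and the 3 genes most like each called member. Chosen with their values seen were Pdk2, Pdk4, Vegfa, Adm, Aldoc, Pfkfb1, Pfkfb2 and Pfkfb4. The same holds for Bnip3, Bnip3l, Ankrd37, Ddit4, Egln1 and Ndrg1. The labels do not say whether mice shared a litter or batch. The members and lists were chosen with earlier results of these data known. Alternatives changed the pseudocount (0.01 or 1), the filter, the scaling, the samples fitted, and a replicate block.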

Additional observations from a re-analysis of the deposited data

Results flagged for a closer look

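Each of 3 genes was marked because its level differed between SE 2 days and SE 6 h by the limma test of that difference, so that its change from pre-SE differed between the times. Slc2a3 differed by -1.54 (log2), from 154 and 128 CPM at SE 6 h to 47.9 and 48.6 CPM at SE 2 days. Kdm3a differed by -1.14, from 58.2 and 55.9 CPM to 26.7 and 24.8 CPM. Ldha differed by 1.19, from 250.2 and 229 CPM to 456 and 657 CPM. Over the alternatives that left out no single mouse, the limma adjusted p was 0.011 to 0.021 for Slc2a3. It was 0.026 to 0.055 for Kdm3a and 0.05 to 0.095 for Ldha, so the calls of these genes did not hold throughout. Against pre-SE, Ldha was called neither at SE 6 h (limma adjusted p 0.68) nor at SE 2 days (0.10). With 2 mice a group, no group was large enough to look for single outlying mice.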

How the results depend on the processing

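Under 17 alternatives, 48 differences of named genes gave 816 values, of which 734 kept their direction and side of the threshold, 71 fell out of the threshold, 9 came inside it and 2 reversed. Pfkfb3 at SE + LEV 6 h against SE 6 h was 0.10 without SE 6 h replicate 2 (-0.40 to 0.10 over mice left out), and Ldha at SE + LEV 2 days against pre-SE was -0.03 without SE + LEV 2 days replicate 1 (-0.03 to 0.69). The Ldha share at SE 6 h against pre-SE was -0.80 percentage points without pre-SE replicate 1 (-0.80 to 7.05). When only the groups compared were fitted, the members called were 0 at SE 6 h against pre-SE, 1 (Hk2) at SE 2 days against pre-SE, 0 at SE + LEV 2 days against pre-SE and 0 at SE 2 days against SE 6 h, where fewer mice estimate the spread. At SE 2 days against SE 6 h the count was also 0 with a pseudocount of 0.01 or 1, no filter, a filter at 1 CPM, median-of-ratios rescaling and the replicate block. Leaving out 1 mouse gave 0 to 1 members at SE 6 h, 0 to 2 at SE 2 days and 0 to 1 at SE + LEV 2 days, each against pre-SE, and 0 to 1 at SE 2 days against SE 6 h. Rescaling moved the median of all genes at SE 6 h from -0.13 to -0.005 and turned the direction of no named difference. Whether the mice of different groups overlapped was not recounted after rescaling. The cause of the other changes was not tested.

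The labels number the mice 1 and 2 in each group, but deviations of same-numbered mice correlated at -0.44 to 0.34 between groups. Not every pair was over 0.1, and the labels do not say what the number marks, so the mice were not treated as paired. With the number as a replicate block, 402 genes were called at SE 6 h and 804 at SE 2 days against pre-SE, and calls were lost for Ldha and Kdm3a at SE 2 days against SE 6 h (adjusted p 0.071 and 0.055), Slc2a3 at SE 6 h (0.053) and Slc16a3 at SE + LEV 2 days (0.079), by limma. With the numbers of SE + LEV 2 days crossed, an alternative chosen after seeing the data, 599 genes were called against pre-SE (410 with the block as labelled, 451 without it) and 0 against SE 2 days. Planned edgeR and DESeq2 fits were not run, and the values were treated as CPM throughout. All values were whole multiples of 1 tag within 0.0051 CPM, where 1 tag was worth 0.0193 to 0.0949 CPM. Of values up to 20 tags, at least 95% came within 0.1 tag of a whole number in 3 of 10 libraries and 36.4% to 82.6% in the other 7. Values are rounded to 0.01 CPM, and in those 7 libraries rounding alone can move a value by more than 0.1 tag. The lower shares there therefore cannot speak for or against whole tags. With 2 mice a group, leave-one-out fits assume that the lone mouse varies like the other groups.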
